A study of Mus musculus with 8 samples.

Results

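The Fc gamma receptors of the mouse and the proteins that carry their signal were followed in sorted monocytes: the activating receptors Fcgr1, Fcgr3 and Fcgr4, the inhibitory receptor Fcgr2b, the adaptor chains Fcer1g and Tyrobp, and the kinase Syk. They were chosen by name, as 7 of the 15566 genes listed in the count table, and all 7 were among the 12938 genes that passed the filter on low counts and were tested. The cells were Ly6C-high classical monocytes from femur and tibia marrow of male C57BL/6 mice, 8 weeks old, untreated and at steady state, sorted as live CD45+ CD11b+ CD115+ cells without Ly6G or CD117. In 4 libraries the mice were LysMDCommd10, in which LysM-Cre, a recombinase driven by the lysozyme M gene in myeloid cells, deletes the floxed Commd10 gene (deficient). The other 4 libraries came from Commd10fl/fl littermates matched for weight, which carry the floxed alleles (control). Commd10 belongs to the COMMD family of protein trafficking adaptors. Whether a library holds 1 mouse or a pool is not given in the labels, so p-values describe only how far these samples vary, which may be technical.

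Fc gamma receptors bind the constant part of IgG and let a myeloid cell take up or respond to opsonized particles. The activating receptors have no activation motif of their own in the mouse and pair with the Fc receptor gamma chain, encoded by Fcer1g, whose immunoreceptor tyrosine-based activation motif (ITAM) is phosphorylated by Src family kinases and then recruits Syk. Tyrobp encodes DAP12, a related ITAM chain that serves other receptors such as Trem2. Fcgr2b carries an inhibitory motif (ITIM) in its own tail, which recruits the phosphatase SHIP1, so the ratio of activating to inhibitory receptors is commonly used to describe a cell's threshold for IgG.

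The stretches that carry these signals are shown because they are the known docking sites of the adaptors and of the inhibitory receptor. They were read 5′ to 3′ from the coding strand of the GRCm38 genome and joined across introns, and capitals mark the codons of the motif tyrosines. The Fcer1g ITAM lies in exons 4 and 5 of 5 (chr1:171229889-171230072, minus strand), the Tyrobp ITAM in exons 4 and 5 of 5 (chr7:30415670-30417382, plus strand), and the Fcgr2b ITIM in exon 8 of 8 (chr1:170961071-170961088, minus strand).
Fcer1g ITAM: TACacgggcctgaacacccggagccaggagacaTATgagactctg
Tyrobp ITAM: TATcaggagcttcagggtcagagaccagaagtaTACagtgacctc
Fcgr2b ITIM: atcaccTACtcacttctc
Both ITAM stretches are 45 bases long and share 19 of them in the same place (42.2%). The ITAM pattern was found once in each adaptor and in none of the 4 receptors or Syk, against 618 of 21782 coding genes (2.84%). The ITIM pattern is loose and occurs in 48.6% of coding genes. It was found 3 times in Fcgr1, once each in Fcgr4, Fcgr2b, Fcer1g and Tyrobp, and in neither Fcgr3 nor Syk, so it does not separate the inhibitory receptor from the other members.

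Fcgr2b, Fcgr4, Fcgr3 and Fcer1g lie in that order on chromosome 1, within 275.7 kb (GRCm38, GENCODE M21). Fcgr1 is on chromosome 3, Tyrobp on chromosome 7 and Syk on chromosome 13. Fcgr3 and Fcgr2b are close copies, with 85.9% identity over 781 aligned coding positions, while the other receptor pairs are 60.5% to 66.2% identical. Of the 1733 windows of 75 bases in Fcgr3 transcripts, 94 (5.42%) also occur in Fcgr2b, so a small part of the reads of either gene could have been counted for the other or dropped. Fcgr2b also shares 155 exon bases (2.68%) with the antisense gene Gm38204, and no source used here says whether strand was counted.

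Library totals ranged from 14231121 to 31040255 counts for control and from 17099454 to 30722262 for deficient mice, so that 1 count stood for 0.0322 to 0.0703 counts per 1000000 (CPM). The 7 genes together took 0.293% to 0.313% of the counts of a library. Commd10 was at 29.2 ± 1.46 CPM (SD, n = 4) in the controls and 21.3 ± 2.17 in the deficient libraries, without overlap, which is 73.0% of control (edgeR adjusted p = 0.0292, with a log2 fold change of -0.46 ± 0.07 SE). This call is lost without control 1, control 3, control 4 or deficient 4, with adjusted p of 0.0646 to 0.138. Cre reads numbered 499 to 987 in the deficient libraries and 0 in each control, which allows up to 0.211 CPM there. The summed level of 10 classical monocyte markers, led by Fn1 and F13a1, ran from 21902 to 23158 CPM across control libraries and from 22198 to 23868 CPM across deficient ones. Markers of the labelled cell type were thus abundant in every library, with Fn1 alone at a mean of 10281 CPM in the controls. Purity was not tested. Dendritic cell markers summed to 714 to 784 CPM across control and 590 to 737 CPM across deficient libraries, and sums for other myeloid and B cell lists are given below. Irf8, at 549 CPM in the controls, led the dendritic sum, while Clec9a and Xcr1 were at 2.66 and 0.401 CPM there. Of 12 T and NK cell markers 8 are not listed in the table, and 10 erythroid markers summed to 418 to 732 CPM across control and 259 to 489 CPM across deficient libraries.

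None of the 7 genes passed an adjusted p of 0.05 in edgeR's quasi-likelihood test (Benjamini-Hochberg over all genes), where 113 of 12938 genes did (0.873%). At an unadjusted p under 0.05 the only member was Fcgr1, against 24.0% of all genes. The groups did not separate for any member, while they did for 12.6% of all genes. DESeq2 called 1 member, Fcgr1, against 6.52% of all genes, and limma-voom called 0. By estimate 5 members were higher and 2 lower in the deficient libraries, with a median log2 fold change of 0.03 over the 7, beside 0.00072 over all genes tested.

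**Figure D1:**
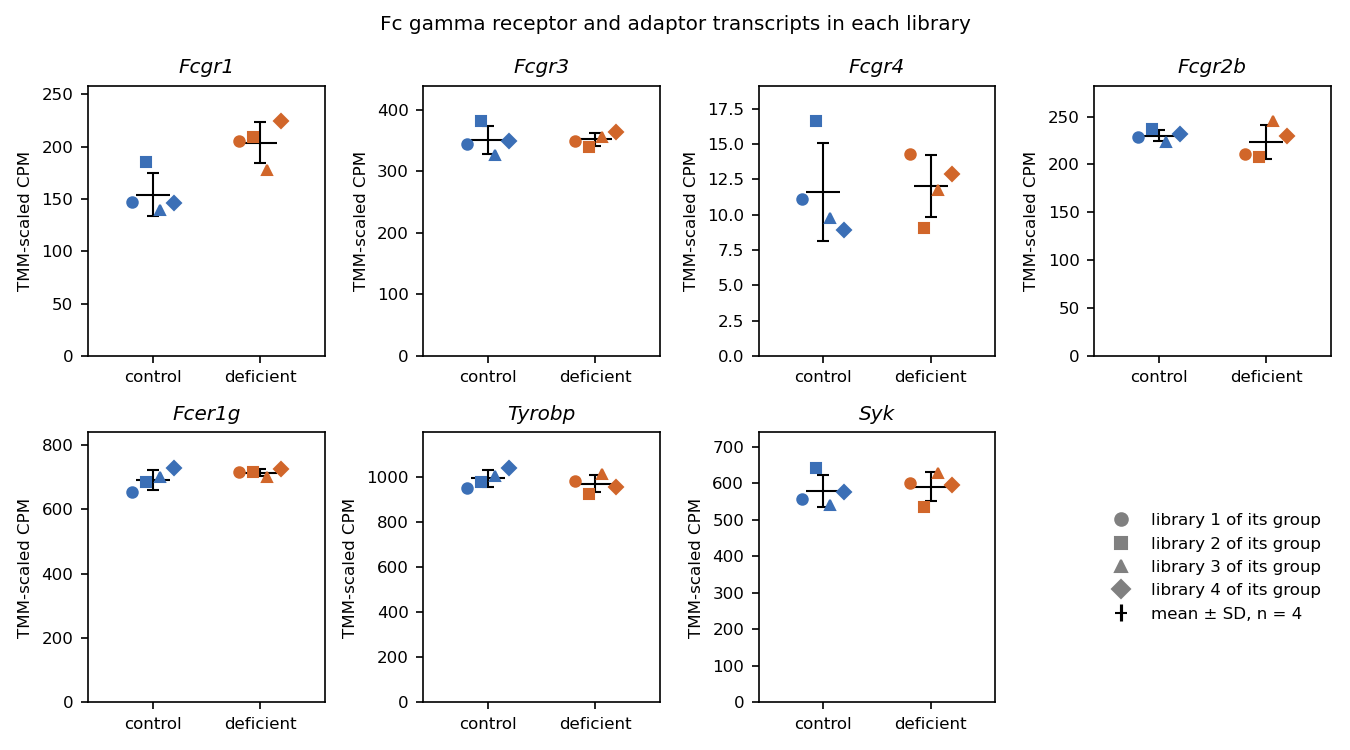
TMM-scaled CPM (vertical axis, from 0) of each of the 7 genes in the 4 control and 4 deficient libraries; each symbol is 1 library and bars give the mean and SD. Fcgr1 stands at 139.6 to 184.9 CPM for control and 177.7 to 224.4 CPM for deficient libraries, and the groups overlap in every panel.

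Fcgr1 encodes the high-affinity IgG receptor CD64 (ENSMUSG00000015947; chromosome 3, 96282909 to 96293969, minus strand). Its level was 146.8, 184.9, 139.6 and 145.8 CPM in control 1 to 4, and 205.1, 208.8, 177.7 and 224.4 CPM in deficient 1 to 4. All deficient libraries were above 3 of the 4 controls, and the one overlap was control 2, which stood above deficient 3. The means were 154 ± 20.7 and 204 ± 19.4 CPM (SD, n = 4 each), a 1.32-fold difference (log2 fold change 0.40 ± 0.10 SE, 95% interval 0.19 to 0.62). The difference missed the threshold (edgeR adjusted p = 0.0736), and 2.94% of tested genes ranked ahead of Fcgr1 by p. An exact two-sided permutation test over the 70 assignments of the libraries gave p = 0.0571, where 0.0286 is the smallest it can give.

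The call for Fcgr1 turned on the tool and on 2 libraries. DESeq2 gave the same log2 fold change of 0.40 with an adjusted p of 0.0026, and limma-voom an adjusted p of 0.0637. Without control 2 the log2 fold change was 0.50 (edgeR adjusted p = 0.0204), and without deficient 3 it was 0.46 (edgeR adjusted p = 0.0357). Over all 8 ways of leaving out 1 library it stayed between 0.36 and 0.50, and the edgeR adjusted p reached 0.218 without deficient 4. Fcgr1 is also a macrophage marker, and 15 markers of a macrophage list, without Fcgr1, summed to 423 to 508 CPM across control and 403 to 497 CPM across deficient libraries. Of the 14 that were tested 4 were higher and 10 lower by estimate, with a median log2 fold change of -0.12. Adgre1 (F4/80), the most abundant of them, was at 192 ± 13.3 and 177 ± 12.2 CPM (log2 fold change -0.12 ± 0.06 SE, edgeR adjusted p = 0.245). Mrc1, the mannose receptor, was at 16.4 ± 3.39 and 8.34 ± 2.32 CPM, without overlap (edgeR adjusted p = 0.0646), and is named after its values were seen. The groups did not overlap for 2 of the 14 tested genes, Mrc1 (lower) and Hmox1 (higher), beside 12.6% of all genes. The only gene of that list past the threshold was Hmox1, a heme-degrading enzyme, which rose from 112 ± 3.66 to 142 ± 15.2 CPM (log2 fold change 0.34 ± 0.07 SE, edgeR adjusted p = 0.0465), and the call was lost with limma-voom, with a stricter filter, without the shallowest library of each group, and without control 1, 3 or 4 or deficient 2 or 4. The part of macrophage RNA in the Fcgr1 level was not tested.

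Fcgr3 encodes the low-affinity activating receptor CD16 (ENSMUSG00000059498; chromosome 1, 171051174 to 171064935, minus strand). It was read at 343.9, 381.7, 327.6 and 349.6 CPM in control 1 to 4, and at 348.9, 339.5, 356.0 and 364.6 CPM in deficient 1 to 4. The deficient libraries lay inside the range of the controls, of which control 2 was again the highest. The means were 351 ± 22.7 and 352 ± 10.7 CPM, with a log2 fold change of 0.01 ± 0.05 SE (edgeR adjusted p = 0.956). The 95% interval ran from 0.93-fold to 1.08-fold.

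Fcgr4 encodes a receptor for IgG2a and IgG2b that is best known from Ly6C-low monocytes, neutrophils and macrophages (ENSMUSG00000059089; chromosome 1, 171018920 to 171029761, plus strand). Its level was 11.1, 16.6, 9.77 and 8.92 CPM in control 1 to 4, and 14.3, 9.08, 11.8 and 12.9 CPM in deficient 1 to 4. The groups overlapped across most of their range, with the highest value in control 2 and the lowest in control 4. The log2 fold change was 0.05 ± 0.21 SE (edgeR adjusted p = 0.910), and its 95% interval of 0.74-fold to 1.45-fold is the widest among the 7 genes. These values rest on 139 to 439 counts a library. Its sign turned when a library was left out, over a range of -0.07 to 0.27.

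Because Fcgr4 marks other myeloid cells, their marker lists are given beside it. The summed level of 15 Ly6C-low monocyte markers was 1204, 1270, 1312 and 1344 CPM in control 1 to 4, and 1136, 770, 1195 and 958 CPM in deficient 1 to 4, lower in every deficient library. Of these 15 genes, all tested, 12 were lower and 3 higher by estimate, with a median log2 fold change of -0.31. The groups did not overlap for 2 of the 15, beside 12.6% of all genes, and 0 passed the threshold. Within that list Cx3cr1, a chemokine receptor, was at 446 ± 45.7 CPM in the controls and 294 ± 91.2 in the deficient libraries (log2 fold change -0.60 ± 0.24 SE, edgeR adjusted p = 0.185). Spn (CD43) was at 346 ± 10.2 and 339 ± 17.0 CPM. The summed level of 15 mature neutrophil markers ran from 1177 to 1299 CPM across control and from 1171 to 1378 CPM across deficient libraries. Csf3r, Cd177 and Mmp8 led this sum, at 385, 373 and 244 CPM in the controls. Cxcr2, Retnlg and Mmp9 were at only 0.840, 0.855 and 1.56 CPM there. Ly6g had 55 counts over all libraries and was not tested. Of the 14 neutrophil markers tested 10 were higher and 4 lower by estimate, with a median log2 fold change of 0.23. Cd177, among the 2 most abundant, was lower (-0.43, edgeR adjusted p = 0.180), and no gene of the list passed the threshold. Fewer cells of a type and less RNA per cell cannot be told apart in bulk samples, and the part of these cells in the Fcgr4 level was not tested.

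Fcgr2b, the inhibitory receptor CD32b (ENSMUSG00000026656; chromosome 1, 170958617 to 170976547, minus strand), is also expressed by B cells. It was read at 228.3, 236.8, 223.4 and 232.1 CPM in control 1 to 4, and at 211.4, 207.5, 245.2 and 229.5 CPM in deficient 1 to 4. Deficient 1 and deficient 2 were below all controls and deficient 3 was above all of them. The means were 230.2 ± 5.68 and 223 ± 17.4 CPM, with a log2 fold change of -0.04 ± 0.05 SE (edgeR adjusted p = 0.638) and a 95% interval from 0.90-fold to 1.05-fold. The summed level of 11 B cell markers, led by Ighm, ran from 453 to 625 CPM across control and from 415 to 478 CPM across deficient libraries, and its part in the Fcgr2b level was not tested.

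Ratios of counts within a library compare the activating receptors with Fcgr2b without any scaling between libraries. Fcgr1 over Fcgr2b was 0.643, 0.781, 0.625 and 0.628 for control 1 to 4, whereas deficient 1 to 4 stood at 0.970, 1.006, 0.725 and 0.978. As for Fcgr1 alone, the groups overlapped only because control 2 exceeded deficient 3. The ratio was 1.37-fold higher by the mean log2 difference of 0.45 (exact permutation test, p = 0.0571, adjusted over 5 ratios p = 0.238). Fcgr3 over Fcgr2b was 1.47 to 1.61 for control and 1.45 to 1.65 for deficient libraries (log2 difference 0.05, exact permutation test, p = 0.371, adjusted p = 0.464). Fcgr4 over Fcgr2b was 0.0384 to 0.0701 and 0.0438 to 0.0675 (log2 difference 0.12, exact permutation test, p = 0.686, adjusted p = 0.686). Fcgr4 over Fcgr1 was 0.0612 to 0.0898 for control and 0.0435 to 0.0696 for deficient libraries (log2 difference -0.33, exact permutation test, p = 0.114, adjusted p = 0.238).

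**Figure D2:**
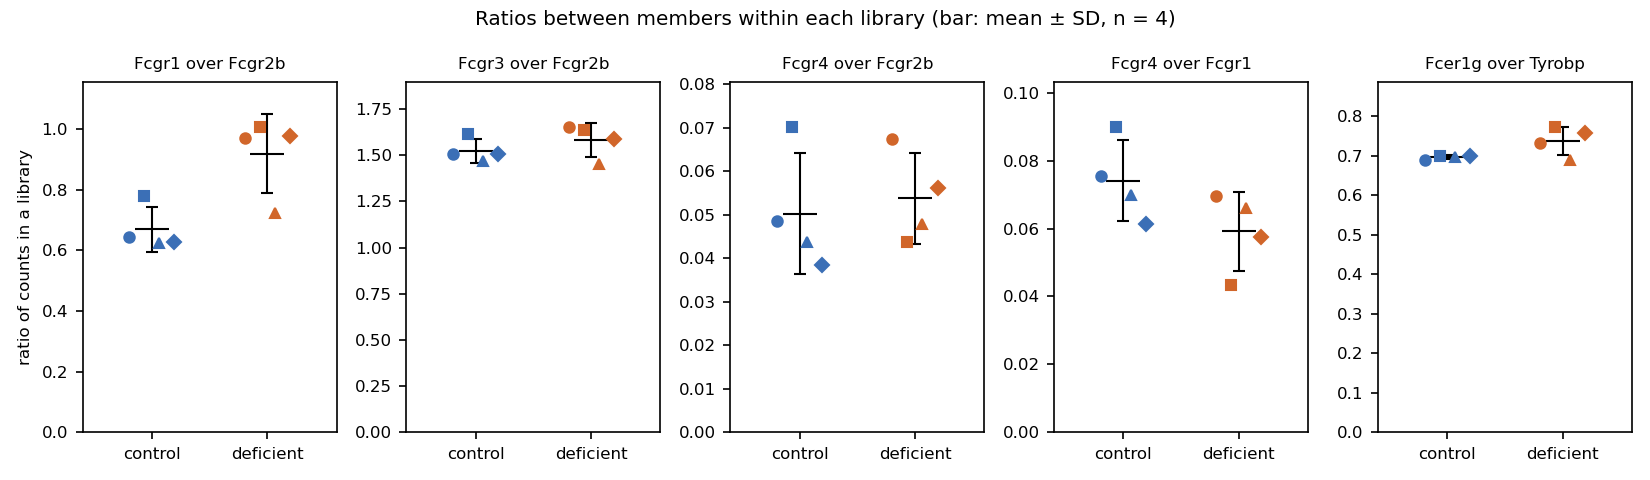
Ratio of the counts of 2 genes within each library (vertical axis, from 0, no unit), for 5 pairs of genes; each symbol is 1 library and bars give the mean and SD of 4. Fcgr1 over Fcgr2b lies at 0.625 to 0.781 for control and 0.725 to 1.006 for deficient libraries, and Fcer1g over Tyrobp is nearly constant in the controls at 0.689 to 0.701.

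Fcer1g, the gamma chain that the activating receptors need for assembly and signalling (ENSMUSG00000058715; chromosome 1, 171229572 to 171234365, minus strand), was read at 654.7, 683.7, 699.4 and 729.3 CPM in control 1 to 4. In deficient 1 to 4 it was at 717.3, 715.6, 699.0 and 724.6 CPM. The deficient libraries fell within the upper part of the control range. The means were 692 ± 31.1 and 714 ± 10.8 CPM, with a log2 fold change of 0.05 ± 0.04 SE (edgeR adjusted p = 0.515) and a 95% interval from 0.97-fold to 1.10-fold.

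Tyrobp (ENSMUSG00000030579; chromosome 7, 30413760 to 30417585, plus strand) was read at 949.7, 979.0, 1003 and 1041 CPM in control 1 to 4, and at 980.5, 926.6, 1015 and 957.1 CPM in deficient 1 to 4. The groups overlapped, with deficient 2 the lowest library and control 4 the highest. The log2 fold change was -0.03 ± 0.04 SE (edgeR adjusted p = 0.653), with a 95% interval from 0.91-fold to 1.04-fold. Fcer1g over Tyrobp was 0.689, 0.698, 0.697 and 0.701 for control 1 to 4, whereas deficient 1 to 4 stood at 0.732, 0.772, 0.689 and 0.757. Deficient 1, 2 and 4 were above all controls and deficient 3 was level with control 1. The ratio was 1.06-fold higher (exact permutation test, p = 0.143, adjusted p = 0.238).

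Syk, the kinase that docks on phosphorylated ITAMs (ENSMUSG00000021457; chromosome 13, 52583173 to 52648792, plus strand), was read at 557.5, 643.0, 541.6 and 575.8 CPM in control 1 to 4. In deficient 1 to 4 it was at 601.2, 536.0, 629.7 and 596.3 CPM. The groups overlapped, and control 2 was the highest control, as it was for Fcgr1, Fcgr3 and Fcgr4. The log2 fold change was 0.03 ± 0.06 SE (edgeR adjusted p = 0.817), with a 95% interval from 0.93-fold to 1.12-fold.

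**Figure D3:**
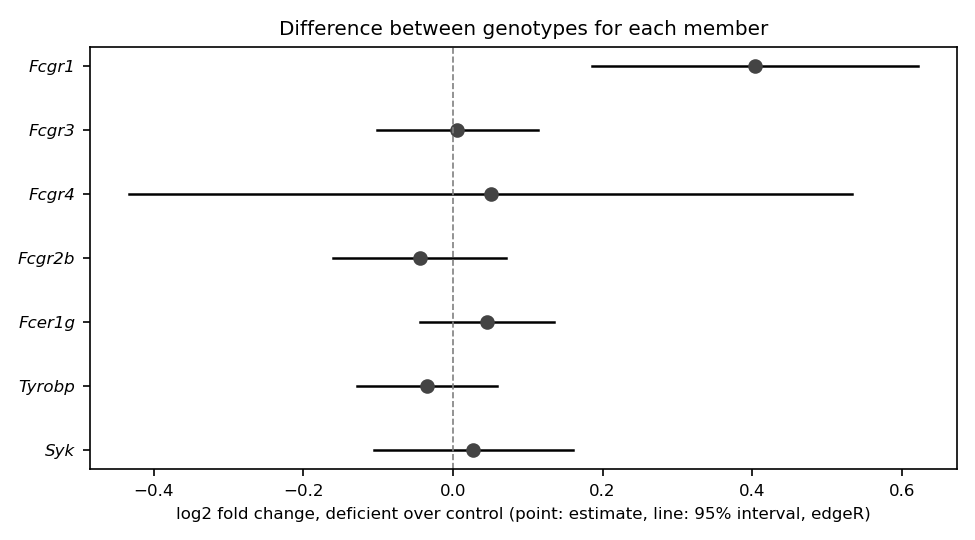
Log2 fold change, deficient over control, of the 7 genes with 95% intervals from the edgeR fit (n = 4 and 4); the line at 0 marks no difference. The interval of Fcgr1 (0.19 to 0.62) lies above 0, and those of the other 6 genes include it.

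Levels of different genes were compared as CPM per kilobase of exon. In the controls Tyrobp was at 1489 ± 57.9 CPM per kb, Fcer1g at 792 ± 35.6, Fcgr3 at 202 ± 13.1, Syk at 61.9 ± 4.76, Fcgr1 at 59.6 ± 7.98, Fcgr2b at 39.8 ± 0.981 and Fcgr4 at 9.23 ± 2.75 (SD, n = 4). Both adaptors thus exceeded every receptor, and Fcer1g was 3.56 to 4.24 times Fcgr3, the most abundant receptor, in each library. All genes tested had a median of 5.52 CPM per kb, and among them Tyrobp stood at the 99.9th percentile, Fcgr2b at the 90.1st and Fcgr4 at the 62.6th. In the deficient libraries the order was the same except that Fcgr1, at 78.8 ± 7.50 CPM per kb, was above Syk, at 63.1 ± 4.21.

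The order of neighbours held in 8 of 8 libraries for every pair except Syk and Fcgr1. Syk was above Fcgr1 in 3 of 4 controls and 0 of 4 deficient libraries. Length mattered for 2 places in the order: with the longest transcript in place of all exons, Syk was above Fcgr1 in 8 of 8 libraries and Fcgr1 above Fcgr2b in 4 of 8.

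**Figure D4:**
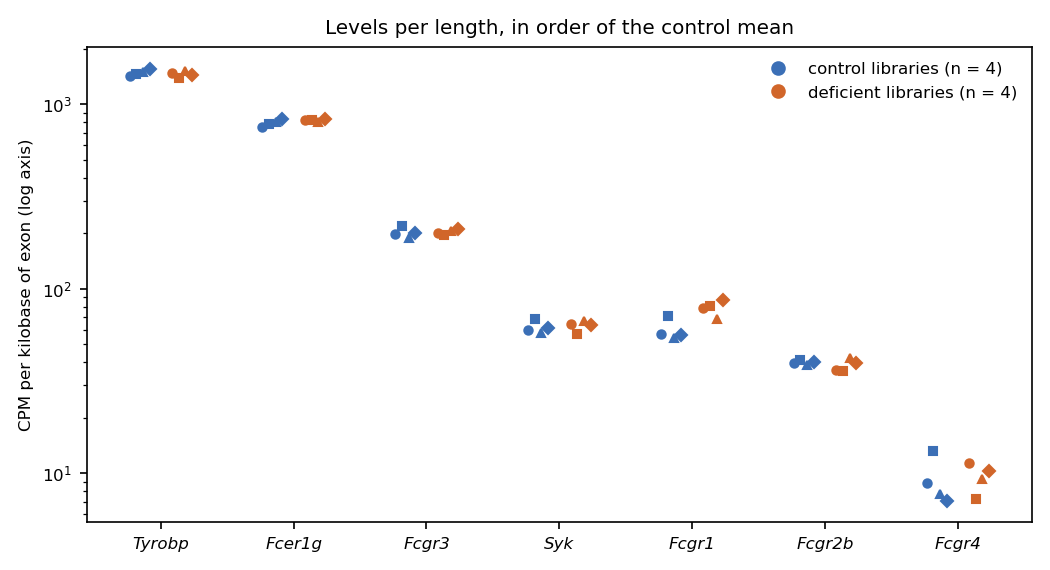
CPM per kilobase of exon (log axis) of the 7 genes in each of the 8 libraries. Tyrobp and Fcer1g lie above all 4 receptors in every library, and Fcgr4 is the lowest, at 9.23 CPM per kb on average in the controls.

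As a share of the 4 receptors on the per-kilobase scale, Fcgr1 made up 18.5% to 20.7% for control and 21.1% to 25.3% for deficient libraries. Fcgr3 made up 63.7% to 66.1% for control and 60.6% to 63.0% for deficient libraries. With all exons as the length, neither share overlapped between groups, beside 12.6% of all genes whose CPM did not overlap. The shares are tied to each other and were not tested. Fcgr2b made up 12.8% ± 0.680 and 11.7% ± 0.885, and Fcgr4 2.94% ± 0.638 and 2.89% ± 0.492. The shares depend on the length used. With the longest transcript in place of all exons, Fcgr1 averaged 15.07% for control and 19.08% for deficient libraries. On that scale Fcgr2b averaged 16.52% and 15.27%, above Fcgr1 in the controls, and Fcgr3 66.09% and 63.35%.

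The promoters of Fcgr1 and Fcgr2b are shown because their ratio differed most by estimate among the 5. They run from 250 bases before to 50 bases after the RefSeq start (GRCm38.p6), at chr3:96293920-96294219 and chr1:170976022-170976321, both on the minus strand. The motifs below were searched on both strands: GAGGAA, the core bound by PU.1 (ETS family), TTCNNNGAA, bound by STAT proteins, and GAAANNGAA, an interferon response type element, and capitals mark the matches.
Fcgr1 promoter: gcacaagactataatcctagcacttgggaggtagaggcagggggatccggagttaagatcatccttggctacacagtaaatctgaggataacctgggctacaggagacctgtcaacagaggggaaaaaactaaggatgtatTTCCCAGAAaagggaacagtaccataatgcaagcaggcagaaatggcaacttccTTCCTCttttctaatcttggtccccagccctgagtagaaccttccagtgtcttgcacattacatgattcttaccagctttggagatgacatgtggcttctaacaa
Fcgr2b promoter: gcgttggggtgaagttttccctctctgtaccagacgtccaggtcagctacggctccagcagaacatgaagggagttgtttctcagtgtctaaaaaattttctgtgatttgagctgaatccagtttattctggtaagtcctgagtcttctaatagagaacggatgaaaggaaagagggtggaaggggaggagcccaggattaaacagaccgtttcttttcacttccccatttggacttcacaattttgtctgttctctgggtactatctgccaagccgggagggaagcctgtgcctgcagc
The Fcgr1 window holds TTCNNNGAA at positions -109 to -101 and GAGGAA, here on the opposite strand, at -55 to -50 from the start, and no matches overlap. The Fcgr2b window holds none of the motifs, nor does that of Fcer1g. Those of Fcgr3, Fcgr4 and 1 of 2 Syk windows hold GAGGAA, and Fcgr4 also holds GAAANNGAA. Among 32851 RefSeq promoters, 28.3% hold GAGGAA, 8.30% TTCNNNGAA and 8.56% GAAANNGAA, and a match is a description of the letters, not of binding.

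The wider pathway was followed in 9 lists of other genes, of which 114 of 133 members were tested. In edgeR 0 of the 114 passed the adjusted threshold, beside 0.873% of all genes tested. At an unadjusted p under 0.05 there were 24 of the 114, or 21.1%, beside 24.0% of all genes, and 52 were higher and 62 lower by estimate. DESeq2 called 12 of the 114, or 10.5%, beside 6.52% of all genes, and limma-voom called 0. Each value below is therefore an estimate that missed the threshold in edgeR.

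Among other immunoglobulin Fc receptors 1 of 7 was higher and 6 lower (median log2 fold change -0.13). Fcgrt, the neonatal Fc receptor that recycles IgG, was at 60.3 ± 3.70 CPM in the controls and 42.8 ± 10.2 in the deficient libraries (log2 fold change -0.51 ± 0.15 SE, edgeR adjusted p = 0.111). Fcrla, a B cell protein related to Fc receptors, was at 2.20 ± 0.939 and 1.51 ± 0.317 CPM. Of the receptors that use DAP12, 8 of 15 were higher and 7 lower (median 0.04). Trem1, which amplifies inflammatory signals, was at 2.86 ± 1.26 and 6.31 ± 2.02 CPM (log2 fold change 1.13 ± 0.33 SE, edgeR adjusted p = 0.106). Klrk1, the receptor NKG2D, was at 11.2 ± 1.96 and 6.17 ± 2.26 CPM (log2 fold change -0.88 ± 0.26 SE, edgeR adjusted p = 0.105). The groups did not overlap for Trem1 or Klrk1, which differed in opposite directions.

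Of the receptors that use the gamma chain, 4 of 6 were higher and 2 lower (median 0.10). Clec4e (Mincle), a receptor for mycobacterial glycolipids, was at 30.9 ± 2.32 CPM in the controls and 48.1 ± 13.2 in the deficient libraries, without overlap (log2 fold change 0.65 ± 0.19 SE, edgeR adjusted p = 0.114). Clec4d, its partner, was at 4.29 ± 0.911 and 5.38 ± 1.17 CPM (edgeR adjusted p = 0.291). All 3 tested members of the other adaptor chains were lower (median -0.41), among them Cd79b, a chain of the B cell receptor, at 16.7 ± 2.09 and 12.8 ± 2.59 CPM. Hcst (DAP10), the partner of NKG2D, was at 7.78 ± 1.40 and 6.77 ± 0.699 CPM. The summed B cell markers given above were below every control in 3 of 4 deficient libraries, and their part was not tested.

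Of the Src and TEC family kinases 2 of 7 were higher and 5 lower (median -0.03), with Fgr at 507 ± 33.1 and 469 ± 18.0 CPM (log2 fold change -0.11 ± 0.05 SE, edgeR adjusted p = 0.203) and Tec at 53.4 ± 7.14 and 47.5 ± 3.87 CPM. The 29 downstream signalling proteins were split 14 higher and 15 lower. The groups did not overlap for 7 of the 29, beside 12.6% of all genes. They did not overlap for 2 of 15 DAP12-coupled and 1 of 6 gamma chain-coupled receptors. The same held for 1 of 14 inhibitory receptors, 2 of 19 phosphatases and negative regulators, and 0 genes in each remaining list. Plcg1, a phospholipase, was at 11.4 ± 0.474 and 9.54 ± 0.515 CPM (log2 fold change -0.26 ± 0.08 SE, edgeR adjusted p = 0.0889). Pik3r1, a regulatory subunit of PI3 kinase, was at 73.9 ± 0.952 and 80.3 ± 0.555 CPM (log2 fold change 0.12 ± 0.04 SE, edgeR adjusted p = 0.104).

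Among the inhibitory receptors 6 of 14 were higher and 8 lower (median -0.04). Siglece, a sialic acid receptor, was at 42.7 ± 3.61 and 50.9 ± 3.2 CPM without overlap (log2 fold change 0.25 ± 0.07 SE, edgeR adjusted p = 0.0736), and Clec12a was at 380.2 ± 40.1 and 314 ± 29.7 CPM. Of the phosphatases and negative regulators 9 of 19 were higher and 10 lower. Ptpn22, which dephosphorylates Src and Syk family kinases, was at 127 ± 11.8 and 105 ± 5.49 CPM without overlap (log2 fold change -0.28 ± 0.06 SE, edgeR adjusted p = 0.0585). Dok2, an adaptor that restrains Ras signalling, was at 12.2 ± 1.70 and 17.0 ± 3.93 CPM. In the list of complement and opsonin receptors 8 of 14 genes were higher and 6 lower (median 0.04). The higher ones include C1qa, C1qb and C1qc (log2 fold changes 0.20, 0.30 and 0.21), which encode the complement protein C1q and not a receptor. C3ar1, the C3a receptor, was at 3.59 ± 0.928 and 1.94 ± 0.481 CPM (log2 fold change -0.92 ± 0.22 SE, edgeR adjusted p = 0.0631). Cd36, a scavenger receptor, was at 4.34 ± 1.38 and 2.35 ± 0.986 CPM (edgeR adjusted p = 0.114).

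**Figure D5:**
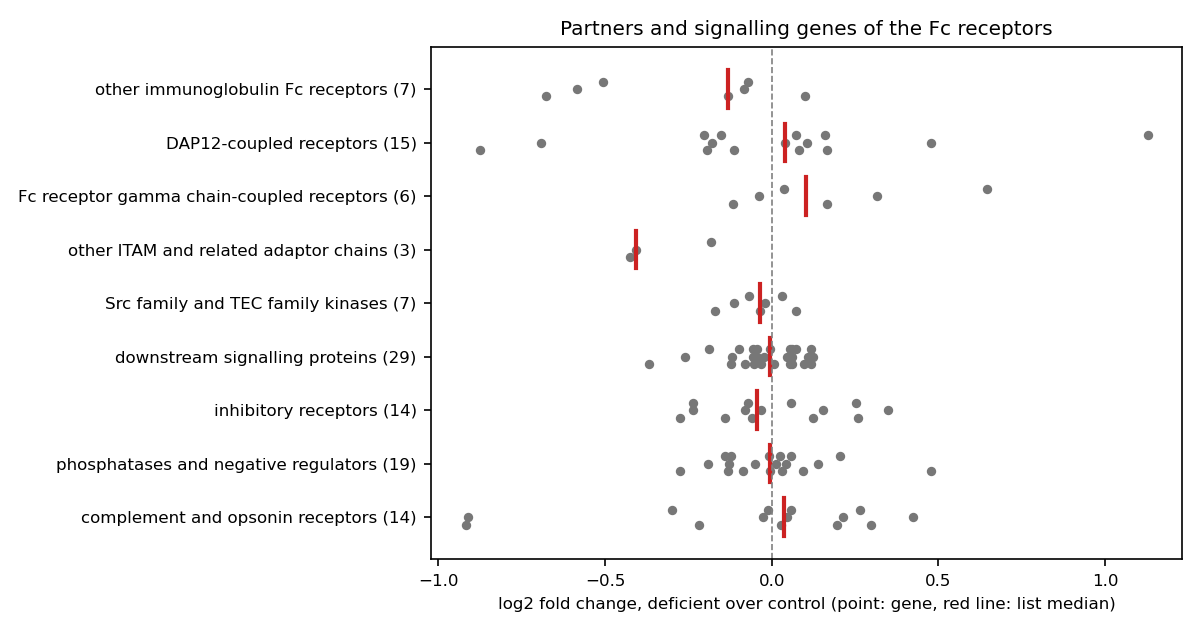
Log2 fold change, deficient over control, of each tested gene in the 9 pathway lists (points), with the median of each list. The medians run from -0.41 in the list of 3 other adaptor chains to 0.10 among gamma chain-coupled receptors, and no point passed an adjusted p of 0.05 in edgeR.

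The genes whose log2 CPM followed each member most closely over the 8 libraries were ranked among 9092 genes with a mean of at least 5 CPM, by the root mean square of the difference after centring. For Fcgr1, whose own SD was 0.265 on the log2 scale, the closest were Acaca (0.0631), Aacs (0.0648) and Tmem132a (0.0720). For Fcgr4 (own SD 0.317) they were Ndst1 (0.0911), Pilrb1 and Fam134b. For the members that varied less they were Gtf2b, Mindy1 and Mrpl30 (Fcgr3), Taf8, Lmbrd1 and Slu7 (Fcgr2b), Gcn1l1, Aldh3a2 and Pigq (Fcer1g), Tgfb1, Sirt7 and Aup1 (Tyrobp), and Myo7a, Rnf145 and Zfp719 (Syk). The 8 libraries share these values with the genotype comparison, so this is a description with no test.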

How the data were processed

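RNA was measured in 8 libraries of sorted monocytes, 4 per genotype. Per the file headers, the authors deposited whole-number counts per gene that were not normalized, and these were used. Per the submitters' processing notes the tools were cutadapt, STAR 2.7.3a, HTSeq 0.12.4 and DESeq2 with GRCm38; which step each served is not stated there. No gene in the table has a highest count below 6. A Cre row was left out of library sizes and tests, and a block of normalized values was not used here. No replicate was a copy of another: pairs within a group differed by 2.88 to 23.4 in chi-square per degree of freedom. The labels mention no molecular identifiers, so limits cover counting error only.

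Counts were filtered (filterByExpr, minimum count 10, minimum total 15), TMM-scaled and fitted with edgeR 4.0.16 (R 4.3.3), robust quasi-likelihood, two-sided, with genotype as the only term and Benjamini-Hochberg adjustment. DESeq2 1.42.0, limma-voom 3.58.1, other scalings and filters, and leaving out libraries were alternatives. Ratios were tested by exact permutation. The running numbers in the titles of all controls precede those of all deficient samples, so an order of handling and genotype cannot be told apart.

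Members and lists were chosen with earlier results of these data known. Named genes are the members, Commd10, of each pathway list the 2 with the smallest p (none passed the threshold), the 3 genes most like each member, and the 2 most abundant markers of a list. Further list genes are named to show what a sum or a count holds, and Mrc1 after its values were seen. Symbols of 2 list members were matched through synonyms. Exon lengths came from GENCODE M21, which matched 12926 of the tested identifiers. Promoters came from RefSeq, where 6 of 7 members matched. The promoter motifs were settled after a first search of the same promoters: a longer spelling of GAAANNGAA was shortened by its last letter and a further spaced motif was dropped. The pipeline was tested on simulated data.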

Additional observations from a re-analysis of the deposited data

Results flagged for a closer look

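A single library stood far from the other 3 of its group in 7 of 98 group values, where chance alone gives about 1 in 20. Control 2 held the highest Fcgr1 level of the controls, 184.9 CPM against 139.6 to 146.8 CPM. The ratio of Fcgr1 to Fcgr2b was 0.7807 in control 2 against 0.6248 to 0.6431 in the other controls, and 0.7245 in deficient 3 against 0.9703 to 1.006 in the other deficient libraries. These are the 2 libraries whose removal brought Fcgr1 past the threshold. Control 2 was low for C3ar1, at 2.211 CPM against 3.925 to 4.219 CPM, and for Fcgrt, at 54.77 CPM against 61.79 to 62.58 CPM. Deficient 3 was high for the B cell genes Ighm, at 426.3 CPM against 381.5 to 387.1 CPM, and Fcrla, at 1.988 CPM against 1.333 to 1.397 CPM. The cause was not tested.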

How the results depend on the processing

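Fcgr1 and Commd10 kept their direction under every alternative listed here. For Fcgr1 DESeq2 gave a log2 fold change of 0.40 past the threshold, and DESeq2 called 843 genes in all, against 113 in edgeR. Of the pathway genes DESeq2 called 12 and edgeR 0. Other scalings, filters and limma-voom gave 76 to 139 genes and called no member. Leaving out 1 library gave 1 to 522 genes past the threshold: 1 without control 1, 298 without control 2, 3 without control 3, 8 without control 4, and 522, 29, 479 and 2 without deficient 1 to 4. In the same runs the log2 fold change was 0.36 to 0.50 for Fcgr1 and -0.53 to -0.42 for Commd10, and the list medians were -0.014 to 0.10 for DAP12-coupled receptors and -0.068 to 0.029 for inhibitory receptors. Without the shallowest library of each group 1 gene passed, Commd10 was at -0.47 and missed the threshold, and the median of the DAP12-coupled list was -0.027. The cause was not tested. Fcgr3, Fcgr4 and Syk, which were called in none of these runs, turned sign: their log2 fold changes ran from -0.027 to 0.046, -0.068 to 0.27 and -0.0052 to 0.078 with 1 library left out, and were -0.031, -0.0040 and -0.036 without both shallowest libraries. Of the marker genes, Spn (-0.052 to 0.0010) and Itga2b (-0.12 to 0.23) also turned sign, as did the list medians near 0 of downstream proteins and of phosphatases. No paired analysis was possible because the labels pair no samples. Fcgr4 had the fewest counts of the members, at 139 to 439 a library, and stood at 11.6 ± 3.46 CPM (SD) in the controls. The part of counting error in that spread was not tested.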
